A study of Mus musculus with 35 samples.

Results

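RNA-seq of 6 single-cell-derived clones of mouse embryonic fibroblasts (MEFs) was compared: 3 clones expressing Δ-C60, a NELFB protein without its C-terminal end, and 3 clones labelled WT. They were chosen by those labels alone, from 15 stable clones and 35 libraries in the series. All 6 clones came from cells of genotype Nelfb flox/-, in which 1 Nelfb allele was null from the start and the floxed allele was the target of Ad-Cre, an adenovirus carrying Cre recombinase, so that ectopic NELFB is meant to be the only source of the protein. The labels give a pBabe vector for Δ-C60 and a pLenti vector for WT, whereas the methods describe a lentiviral vector for every construct. Vector and construct therefore cannot be told apart in this comparison. A further group of 3 clones, WT(N48), was made with pBabe-WT-ATG-NELFB and Ad-Cre and serves as a second wild-type comparator; its name is not explained. Each clone grew from a single cell and was sequenced in bulk, so differences between founder cells are part of every value, and a shift in the share of cells that express a gene and a shift in its RNA per cell cannot be told apart.

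NELF, the negative elongation factor, is a complex of NELFA, NELFB, either NELFC or NELFD, and NELFE. Together with DSIF it holds RNA polymerase II (Pol II) in a paused state shortly downstream of the start of many genes, until P-TEFb phosphorylates the complex and releases Pol II into elongation. NELFB links the other subunits to each other, and mouse embryos need it to survive. The comparison asks how the transcriptome of cells that rely on the truncated protein differs from that of cells given the full-length one.

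The truncation is written into the reverse primer with which Δ-C60 was amplified. Its 40 bases are shown first, with the 16 bases that match Nelfb in capitals, followed by the coding stretch that the product lacks, read from the GENCODE transcript Nelfb-201 (mm10, minus strand).
reverse primer: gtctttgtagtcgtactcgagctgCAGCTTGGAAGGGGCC
coding bases removed: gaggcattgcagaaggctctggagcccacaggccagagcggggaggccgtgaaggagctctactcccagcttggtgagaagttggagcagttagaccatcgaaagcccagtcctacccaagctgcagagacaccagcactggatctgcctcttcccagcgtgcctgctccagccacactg
The capitals anneal within exon 12 of 13, at chr2:25200695-25200710. From the next base to the last codon before the stop, chr2:25200323-25200694 across the end of exon 12 and the start of exon 13, 180 coding bases or 60 codons are lost, and 571 of the 631 annotated codons remain. The removed bases make up 6.83% of the 2637-base annotated transcript, a length that includes its untranslated ends. Reads from the Δ-C60 construct can still fall on the coding bases that remain.

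Nelfb itself set the libraries labelled WT apart from their label. The 3 Δ-C60 clones held 6167, 5559 and 4417 reads on Nelfb, or 247, 208 and 218 CPM (counts scaled by TMM-adjusted library size). In the libraries labelled WT, clone 1 held 200 reads (10.3 CPM), clone 2 held 2637 (109 CPM) and clone 3 held 306 (15.5 CPM). Every Δ-C60 clone was thus above every WT clone, and WT clones 1 and 3 lay far below WT clone 2. For scale, populations with an empty vector, normalized separately, had 45.3 and 39.1 CPM after Ad-GFP, when the floxed allele was intact, and 7.86 and 5.43 CPM 7 days after Ad-Cre. The WT(N48) clones had 241, 127 and 56.3 CPM. Between Δ-C60 and WT the log2 fold change was 2.31 (SE 0.73) and the adjusted p 0.0675 (quasi-likelihood test of edgeR, Benjamini-Hochberg over 13223 genes), which missed the threshold of 0.05. Against WT clone 2 alone, with its spread taken from the other groups, the log2 fold change was 1.01 (adjusted p 0.506). Since 2 of the 3 WT libraries go against their label in this gene, the direction of each result below is that of Δ-C60 relative to the libraries labelled WT, and values with WT clone 2 alone are given where they bear on a result.

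None of the partner subunits was called. Nelfa, which contacts Pol II, had 79.3, 51.6 and 58.9 CPM in Δ-C60 and 61.6, 78.5 and 63.9 CPM in WT. Nelfcd, which bridges NELFA and NELFB, had 56.9, 84.1 and 60.1 CPM in Δ-C60 and 80.0, 87.2 and 67.5 CPM in WT. Both sets of values overlapped. Nelfe, the RNA-binding subunit, had 61.3, 58.4 and 50.2 CPM in Δ-C60 and 67.2, 87.7 and 67.6 CPM in WT, so its Δ-C60 clones were the lower 3 of 6. The log2 fold changes were -0.10 (SE 0.20), -0.22 (SE 0.21) and -0.39 (SE 0.17), with adjusted p of 0.783, 0.542 and 0.17 by the same test. These are transcript levels and say nothing of the proteins.

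**Figure D1:**
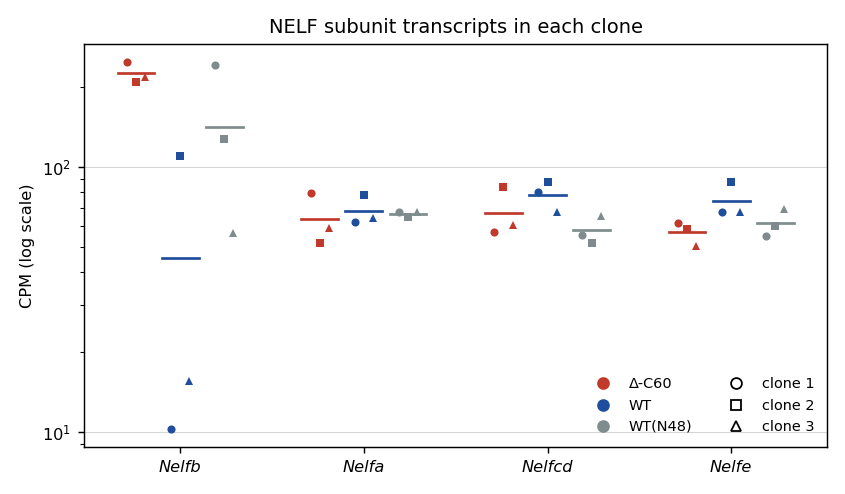
CPM (log scale) of the 4 NELF subunit genes in each Δ-C60, WT and WT(N48) clone; symbols mark the clone number and bars the group mean. Nelfb was at 10.3 and 15.5 CPM in WT clones 1 and 3 and at 109 CPM in WT clone 2, below the 208 to 247 CPM of the Δ-C60 clones, while the other subunits overlapped or nearly did.

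With all 6 clones, more genes were called higher in Δ-C60 than lower. Of 13223 genes tested, 711 (5.38%) were called, which required an adjusted p below 0.05 together with a log2 fold change beyond 1 in either direction. Of these, 488 (3.69% of the genes tested) were higher in Δ-C60 and 223 (1.69%) were lower, and 3587 genes were below 0.05 before adjustment. The median log2 fold change over all tested genes was 0.04, against 1.79 over the genes called higher and -1.70 over those called lower. In 669 of the 711 called genes the 3 Δ-C60 values and the 3 WT values did not overlap (94.1%), compared with 27.9% of all tested genes. Those genes were called from these same values, so the share is no added support for the calls. Among all 13223 genes, every Δ-C60 clone was above every WT clone in 1790 and below every WT clone in 1892.

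The number of calls depended on which libraries labelled WT were used and on the tool. Calls numbered 93 without WT clone 1 (51 higher, 42 lower), 296 without WT clone 2 (163 higher, 133 lower) and 129 without WT clone 3 (63 higher, 66 lower), and 1173 without Δ-C60 clone 2. With WT clone 2 as the only WT library, whose spread is then assumed to be like that of the other groups, 3 genes were called: Btbd11 was higher, and Ednra and Sf3b3 were lower in Δ-C60. These 3 were named after their values were seen. Against WT clone 2 alone, the median log2 fold change was 1.78 over the 488 higher genes and -1.58 over the 223 lower genes. Those genes were called in a fit that held these same libraries, so the medians do not test how stable the sizes were. On the 6 libraries alone, edgeR called 79 genes and DESeq2 890. With each of the 6 clones left out in turn, 67 genes were called every time, 41 higher and 26 lower.

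The Δ-C60 clones were also less alike than the WT clones. Over all tested genes, the median SD of log2 levels between clones was 0.41 in Δ-C60, 0.205 in WT and 0.259 in WT(N48). Among genes of at least 10 CPM, the median absolute log2 difference was 0.378 to 0.512 between pairs of Δ-C60 clones and 0.168 to 0.242 between pairs of WT clones. Between a Δ-C60 and a WT clone it was 0.392 to 0.458. A typical gene thus differed as much between Δ-C60 clones as it did between a Δ-C60 clone and a WT clone.

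**Figure D2:**
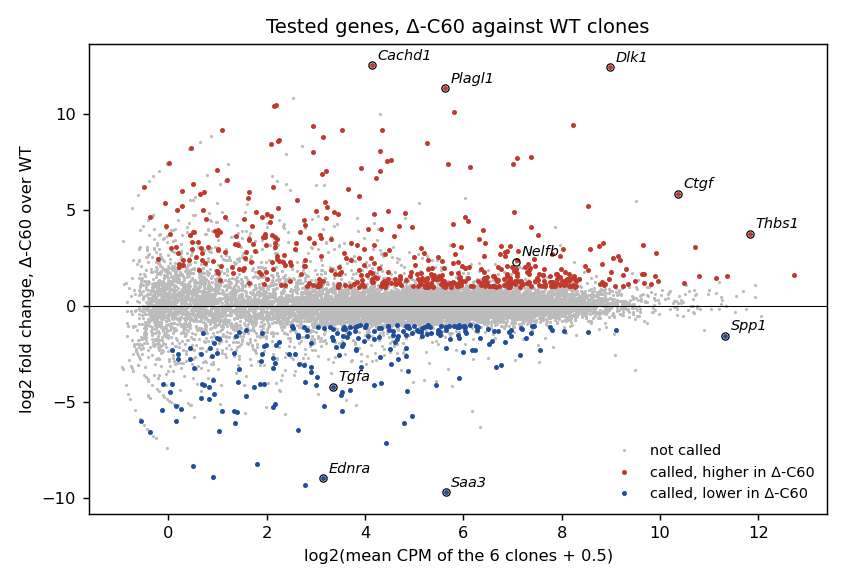
Log2 fold change of Δ-C60 over WT clones (y) against the log2 of the mean CPM of the 6 clones plus 0.5 (x) for the 13223 tested genes; red points are the 488 genes called higher and blue points the 223 called lower in Δ-C60. Some grey genes, Nelfb (2.31) among them, changed by more than 1 without being called.

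A handful of genes were near silent in all clones of one group and expressed in all of the other. By the rule used (at most 3 reads in each clone of one group and at least 5 CPM in each clone of the other), 4 genes were on in Δ-C60 and off in WT, and 1 was on in WT and off in Δ-C60. Cachd1 (chromosome 4), which encodes a calcium channel-related membrane protein, had 49.8, 23.9 and 28.8 CPM in Δ-C60 and no read in any WT clone, so it was at least 237.7-fold higher against a floor of 3 reads per library. Plagl1 (chromosome 10), an imprinted zinc finger gene, had 137, 39.8 and 117 CPM in Δ-C60 and 2 reads in the 3 WT clones together. Lama2 (chromosome 10), the laminin α2 chain of basement membranes, had 58.5, 8.13 and 52.1 CPM against 4 reads in all WT clones. Tmtc2 (chromosome 10), a transferase of the endoplasmic reticulum, had 5.62, 16.1 and 21.4 CPM against 1 read. Fam49a and Wbscr17 had no WT read either, but fell short of 5 CPM in 1 Δ-C60 clone each. In the other direction, Ednra (chromosome 8), the endothelin A receptor, had 28.0, 12.1 and 9.89 CPM in WT and 2 reads in all Δ-C60 clones. Adjusted p-values were 0.00892 for Cachd1, 0.0275 for Plagl1, 0.00493 for Lama2, 0.0301 for Tmtc2 and 0.00493 for Ednra. Plagl1 and Tmtc2 missed the threshold when any 1 WT clone was left out, whereas Cachd1, Lama2 and Ednra stayed called with each clone left out.

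WT(N48) clones were apart from the WT clones in all 5 of these genes, in the direction of Δ-C60. Tmtc2 was at 4.21, 4.20 and 0.666 CPM in them, below every Δ-C60 clone and above every WT clone. Cachd1 had 13.8, 10.9 and 8.97 CPM, Plagl1 170.5, 176 and 73.1 CPM, and Lama2 29.6, 19.7 and 6.38 CPM. Ednra was at 0.101, 0.55 and 0.245 CPM, below every WT clone. The 4 genes off in WT were chosen for near silence there, so WT(N48) could hardly lie below WT in them.

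Other genes with the largest called rises varied widely among the Δ-C60 clones. Sulf1, an extracellular sulfatase that trims heparan sulfate, had 319, 21.0 and 648 CPM in Δ-C60 and 0.876, 1.49 and 2.13 CPM in WT. Fhl1, a LIM-domain protein of muscle, had 289, 43.6 and 1469 CPM against 0.361, 0.083 and 2.18 CPM. Foxp2, a forkhead transcription factor, had 61.7, 1.83 and 163 CPM against 0.0515, 0.456 and 0.0507 CPM. In each of these the groups did not overlap, yet Δ-C60 clone 2 was the lowest Δ-C60 clone by a wide margin. Dlk1, an imprinted Notch-related gene, varied most, with 2583, 0.30 and 455 CPM in Δ-C60 and 0.155, 0.124 and 0.254 CPM in WT, so that Δ-C60 clone 2 was close to the WT clones. The rest of the 15 leading rises were Fam49a, Wbscr17, Limch1, Apob, Gng11, Smoc2 and Ctnnd2. Of the genes named in this paragraph, Limch1 missed the adjusted p threshold without WT clone 1 or 3. Every other gene missed it when any 1 WT clone was left out.

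The leading falls included the acute-phase genes Saa3 and Hp. Saa3, serum amyloid A3, had 0.0401, 0.150 and 0.148 CPM in Δ-C60 and 129, 13.6 and 153 CPM in WT. Hp, haptoglobin, had 0.321, 2.13 and 0.938 CPM against 88.7, 27.3 and 64.5 CPM. Nnmt, nicotinamide N-methyltransferase, had 2.37, 4.46 and 0.74 CPM against 69.0, 36.2 and 56.6 CPM, and fell by 4.40 on the log2 scale (SE 0.65, adjusted p 0.00583). None of these sets overlapped. Among the rest of the 15 leading falls were Kank4, Ednra, Sntb1, Agt, Serpinb2, Steap4, Gria1, Rnf180, Slfn2, Rab15 and Pde3a. Saa3, Steap4 and Gria1 missed the adjusted p threshold when any 1 Δ-C60 or WT clone was left out. Slfn2 and Pde3a missed it without any 1 WT clone. Hp, Agt and Rnf180 missed it without WT clone 1 or 3, and Serpinb2 without WT clone 1. Nnmt, Kank4, Ednra, Sntb1 and Rab15 stayed called with each clone left out. For Saa3, reads that match its close paralogs as well could have been left out by the mapping quality filter.

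Called genes were not spread evenly over the chromosomes. On chromosome 10, 91 of 640 tested genes were called higher and 2 lower, and 89.4% had a positive log2 fold change, with a median of 0.68. On chromosome 8 the pattern was the opposite: 4 of 709 genes were called higher, 55 were called lower and the median was -0.51. Chromosome 3 held 49 higher and 4 lower genes of 650, with a median of 0.44. The share called was 14.5% on chromosome 10, 8.32% on chromosome 8 and 8.15% on chromosome 3, beside 5.38% over all genes. These counts moved with the clones used: without 1 clone, 13 (without WT clone 1) to 133 (without Δ-C60 clone 2) genes of chromosome 10 were called higher. Likewise 16 (without WT clone 1) to 78 (without Δ-C60 clone 1) genes of chromosome 8 were called lower, and 9 (without WT clone 1) to 63 (without Δ-C60 clone 3) genes of chromosome 3 were called higher.

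Per clone, these shifts came from different libraries. Relative to the mean of all 15 clones, the median gene on chromosome 10 was at 0.54, 0.09 and 0.04 in Δ-C60 and at -0.42, -0.58 and -0.31 in WT (log2). On chromosome 8, Δ-C60 clone 2 was at -0.78 and the other Δ-C60 clones at -0.13 and -0.01, while the WT clones were at 0.19, 0.24 and 0.32. Chromosome 3 was raised mainly in Δ-C60 clone 2, at 0.74, and chromosome X was low in Δ-C60 clone 1, at -0.72. After the median of each chromosome in each clone had been removed, an alternative chosen after seeing the data, 596 genes were called, 405 higher and 191 lower, and 476 of them were among the 711. Copy number was not measured, and its part in these shifts was not tested.

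**Figure D3:**
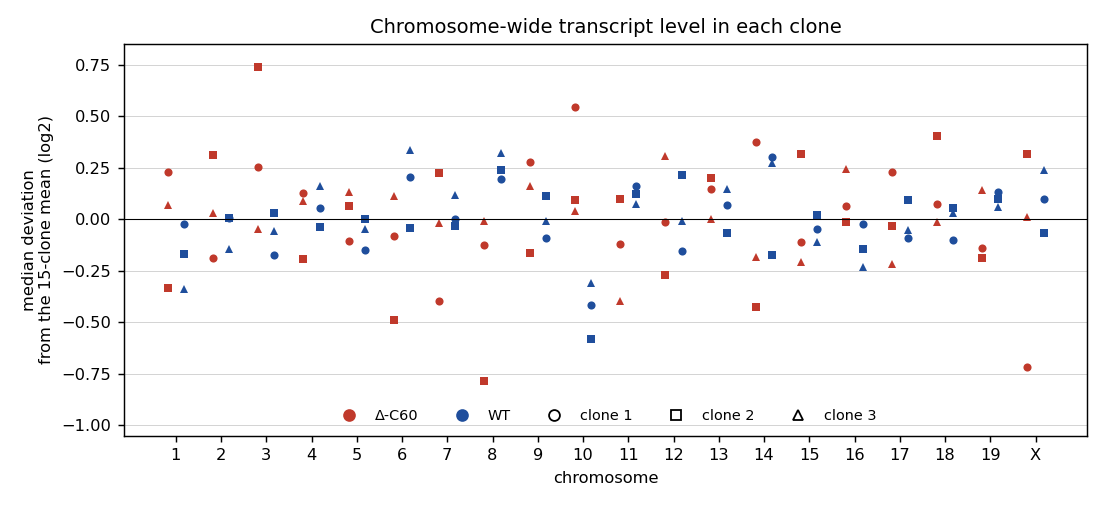
Median log2 deviation of the genes of each chromosome from the mean of the 15 clones (y), by chromosome (x), for each Δ-C60 (red) and WT (blue) clone, over genes of at least 10 CPM. The WT clones lie at -0.31 to -0.58 on chromosome 10, and Δ-C60 clone 2 stands apart on chromosomes 3 (0.74) and 8 (-0.78).

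Calls among genes of pausing and elongation other than NELF were about as rare as among all genes. Of 23 tested, 1 was called higher, a share near the 3.69% of all genes, and none lower, beside 1.69%. The median log2 fold change was 0.08, beside 0.04 over all genes. The called gene was Aff1, a scaffold of the super elongation complex that carries P-TEFb, with 266, 280.1 and 395 CPM in Δ-C60 and 124, 154 and 138 CPM in WT (log2 fold change 1.18, SE 0.20, adjusted p 0.00738). The groups did not overlap. Aff1 was not called without WT clone 1 (adjusted p 0.0512) or with WT clone 2 alone (adjusted p 0.316).

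Immediate early genes, which serum and stress switch on within minutes and many of which hold paused Pol II, were higher as far as they were called: 6 of 26 rose, beside 3.69% of all genes, none fell, beside 1.69%, and the median was 0.57, beside 0.04. Cyr61, a matricellular growth regulator, had 1770, 957 and 2304 CPM in Δ-C60 and 191, 273 and 271 CPM in WT (log2 fold change 2.78, SE 0.43, adjusted p 0.00613). Dusp1, a phosphatase that switches off MAP kinases, had 139, 217 and 257 CPM against 32.4, 51.5 and 65.6 CPM. Atf3, a stress-induced transcription factor, had 34.1, 11.4 and 17.9 CPM against 3.04, 3.61 and 5.48 CPM. Klf2, Klf6 and Fosb were the other risers. In none of the 6 did the groups overlap. The number called ranged from 1 (without WT clone 1) to 8 when 1 clone was left out.

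Kinase genes of the PI3K-AKT and RAF-MEK-ERK cascades showed no call in either direction among 32 tested, where 5.38% of all genes were called. Their median was 0.21, with clone medians of 0.21, 0.11 and 0.17 in Δ-C60 and -0.06, 0.03 and 0.04 in WT. Of the 32, 3 passed the adjusted p but fell short of the size required. With 1 clone left out, up to 2 kinase genes were called higher. Nor was any of 13 ERK feedback genes called (median 0.13), beside the same 5.38% of all genes. With 1 clone left out, up to 2 of these were called higher, and their median ranged from 0.02 to 0.32. With chromosome medians removed, 1 was called higher. Growth factor ligands were called in both directions, with 4 of 31 higher and 4 lower, beside 3.69% and 1.69% of all genes. Without WT clone 1 or 3 no ligand was called higher, and 2 or 3 were called lower. The 3 EGF receptor ligands among those lower were Tgfa, Btc and Ereg. Tgfa had 1.00, 1.16 and 0.839 CPM in Δ-C60 and 18.1, 21.1 and 16.2 CPM in WT (log2 fold change -4.20, SE 0.53, adjusted p 0.00493). Hbegf, an EGF receptor ligand as well, was higher in Δ-C60, at 206, 182 and 187 CPM against 23.6, 82.1 and 31.2 CPM. Hgf, the ligand of the receptor MET, was lower at 1.80, 9.21 and 2.81 CPM against 118, 58.8 and 65.9 CPM. The neurotrophin gene Bdnf and the PDGF chain gene Pdgfb rose as well. Of the ligands named here the groups overlapped for Pdgfb alone, which was at 0.842 CPM in Δ-C60 clone 1. Among receptor tyrosine kinases, Igf1r and Flt4 were called higher and none lower of 31, near the same shares of all genes, and neither was called without Δ-C60 clone 3 or without WT clone 1 or 3.

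Genes of cholesterol synthesis and its regulation held more called genes than any other metabolic list examined. Of 25 tested, 11 were higher and none lower, beside 3.69% and 1.69% of all genes, and the median was 1.12. For 18 of 25 every Δ-C60 clone was above every WT clone, as it was for 1790 of all 13223 genes. Of the 11, 8 are named here, which was decided after their values were seen. They span the pathway from its first steps (Hmgcs1) through the isoprenoid steps (Idi1, Fdps) and squalene (Sqle, Lss) to the sterols (Cyp51, Hsd17b7), with the SREBP retention factor gene Insig1. Hmgcs1, which makes HMG-CoA, had 345, 217 and 288 CPM in Δ-C60 and 137, 89.9 and 119.7 CPM in WT (log2 fold change 1.29, SE 0.20, adjusted p 0.00638). Insig1 had 95.1, 84.2 and 93.8 CPM against 28.5, 25.9 and 27.4 CPM (1.74, SE 0.30, adjusted p 0.00906). Sqle, squalene epoxidase, had 358, 503 and 343 CPM against 167, 153 and 138 CPM (1.39, SE 0.20, adjusted p 0.00553). Over these 8 genes the log2 fold changes ran from 1.12 to 1.74, and no groups overlapped. Lss missed the adjusted p threshold with chromosome medians removed, and Lss and Cyp51 missed it when any 1 WT clone was left out. Idi1 missed it with the replicate block, with DESeq2 or edgeR on the 6 clones and without any 1 WT clone, among other alternatives. Hsd17b7 missed it without WT clone 3 and Insig1 without WT clone 1. Hmgcs1, Fdps and Sqle stayed called with each clone left out.

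The list separated the clones. Its median deviation from the 15-clone mean was 0.84, 0.39 and 0.67 in Δ-C60 and -0.24, -0.51 and -0.31 in WT (log2). Between 5 (without WT clone 1) and 14 of the 25 were called when 1 clone was left out, and none with WT clone 2 as the only WT library, where the median was 1.29. The WT(N48) clones were as high as the Δ-C60 clones, at 0.52, 0.46 and 1.18, and the median log2 fold change of the list was -0.20 between Δ-C60 and WT(N48). The clones with MT194, a mutant NELFB in the pLenti vector, were at -0.73, -1.08 and -0.55, and those with MT486, in the same vector, at -0.06, -0.05 and -0.36. Of 19 fatty acid synthesis and desaturation genes, none was called higher and 1, Acsl1, was called lower, beside 3.69% and 1.69% of all genes. Elovl6, a fatty acid elongase, had 241, 171 and 178 CPM in Δ-C60 and 89.7, 115.5 and 93.2 CPM in WT, with no overlap, and passed the adjusted p (0.00812) but fell just short of the size required (log2 fold change 0.98). It missed the adjusted p threshold without WT clone 1 or 3 and with chromosome medians removed. Scd1, a desaturase, had a log2 fold change of 0.79 (adjusted p 0.0602).

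**Figure D4:**
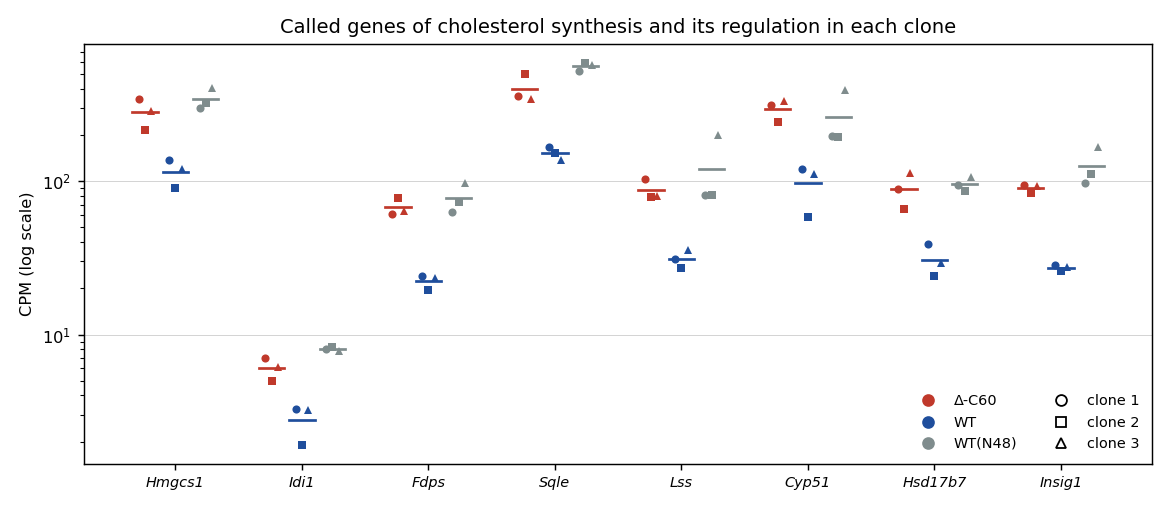
CPM (log scale) of 8 called genes of cholesterol synthesis and its regulation in each Δ-C60, WT and WT(N48) clone; symbols mark the clone number and bars the group mean. For every gene the 3 Δ-C60 clones and the WT(N48) clones lie above the 3 WT clones, for example 84.2 to 95.1 CPM against 25.9 to 28.5 CPM for Insig1.

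With 11 of these genes called in 1 direction, the promoters of the whole list were searched for the core of the sterol regulatory element, TCACNCCAC, on both strands. RefSeq promoter windows (GRCm38.p6, from 250 bases before to 50 after the start) were found for 20 of the 25 genes and 6 of the 11 called. The letters occurred in 1 of the 20, Hmgcs1, and in 1.24% of all 32851 promoters. The window of Hmgcs1, chr13:119690101-119690400 (plus strand), is shown with the match in capitals.
Hmgcs1 promoter: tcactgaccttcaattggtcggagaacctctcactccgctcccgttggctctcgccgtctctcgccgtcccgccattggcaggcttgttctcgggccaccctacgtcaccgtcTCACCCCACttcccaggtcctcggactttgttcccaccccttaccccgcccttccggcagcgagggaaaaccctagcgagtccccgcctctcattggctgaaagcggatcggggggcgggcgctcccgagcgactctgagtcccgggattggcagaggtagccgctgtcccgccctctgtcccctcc
The match begins 137 bases before the annotated start. A match marks letters only, and the windows of the other genes were searched no further.

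Called matrix and adhesion genes were mostly higher in Δ-C60. Of 32 collagen genes tested 9 rose and none fell (median 1.03), of 64 matrix glycoprotein and proteoglycan genes 10 rose and 3 fell (median 0.55), and of 19 integrin genes 6 rose and none fell (median 0.85), beside 3.69% higher and 1.69% lower over all genes and a median of 0.04. Fn1, fibronectin, the most abundant of them, had 12050, 6491 and 12010 CPM in Δ-C60 and 3729, 3771 and 2506 CPM in WT (log2 fold change 1.61, SE 0.44, adjusted p 0.0417). It missed the adjusted p threshold with the replicate block and when any 1 WT clone was left out, among other alternatives. Thbs1, thrombospondin 1, had 2443, 2731 and 15070 CPM against 609, 388 and 486 CPM. In both genes every Δ-C60 clone was above every WT clone, and for Thbs1 clone 3 stood apart. Col4a1, a chain of basement membrane collagen, had 406, 261 and 578 CPM against 129.9, 67.9 and 163 CPM. Its partner chain Col4a2 had 214, 217 and 352 CPM against 72.2, 46.2 and 82.1 CPM. Both lie on chromosome 8, whose median was lower in Δ-C60. Among integrins, Itgb5, a vitronectin receptor subunit, had 322, 223 and 659 CPM against 109.9, 96.7 and 105 CPM (1.95, SE 0.32, adjusted p 0.00693). Itga7, a laminin receptor subunit gene on chromosome 10, had 8.99, 4.87 and 4.69 CPM against 0.567, 0.581 and 0.913 CPM.

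The matrix genes that fell were Spp1, Tnxb and Ncan. Spp1, osteopontin, had 856, 1981 and 1093 CPM in Δ-C60 and 3959, 4110 and 3404 CPM in WT (log2 fold change -1.55, SE 0.31, adjusted p 0.0167), with no overlap. Without 1 of the clones, 0 (without WT clone 3) to 11 collagen genes and 2 (without WT clone 1 or 3) to 7 integrin genes were called higher. Of the 64 glycoprotein and proteoglycan genes, 1 was called higher without WT clone 1 or 3. With 1 clone left out, up to 3 collagen, 7 glycoprotein and proteoglycan and 2 integrin genes were called lower. Matrix enzymes and inhibitors gave 5 higher and 1 lower of 41, beside 3.69% and 1.69% of all genes, with none called higher when any 1 WT clone was left out, and their median of 0.52 went to -0.02 without Δ-C60 clone 2. Up to 6 of the 41 were called lower with 1 clone left out.

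Targets of the coactivator YAP and its TEAD transcription factors, which answer to cell stretch and contact, overlap with the matrix and immediate early lists. Of 22 tested, 7 rose and none fell, beside 3.69% and 1.69% of all genes, and the median was 1.01. Ctgf, a matricellular protein on chromosome 10, had 1093, 391 and 6309 CPM in Δ-C60 and 42.4, 37.0 and 55.6 CPM in WT (log2 fold change 5.85, SE 1.15, adjusted p 0.016). Crim1, a BMP-binding membrane protein, had 716, 376 and 1585 CPM against 132, 165 and 173 CPM. Amotl2, an inhibitor of YAP, had 846, 524 and 1398 CPM against 275, 319 and 296 CPM. Cyr61, F3, Ptpn14 and Asap1 were the other risers. In all 7 the groups did not overlap, and in these 3 genes Δ-C60 clone 2 was lowest and clone 3 highest; the median of the list was 0.37 without clone 3, and 1 gene was called without WT clone 1 or 3. Smooth-muscle contractile genes had clone medians of 0.95, -0.01 and 2.27 in Δ-C60 and -0.48, -0.76 and -0.80 in WT. Of 14 tested, 5 rose (Cnn1, Synpo2, Lmod1, Tpm1 and Tpm2), none fell and the median was 2.36, but none was called when any 1 WT clone was left out. Cnn1, calponin, had 152, 8.65 and 217 CPM in Δ-C60 and 6.90, 5.14 and 2.94 CPM in WT. Acta2, smooth-muscle actin, had 372, 46.6 and 3852 CPM against 51.7, 8.88 and 35.7 CPM, which overlapped, and was not called by edgeR (adjusted p 0.109). With DESeq2 it passed on the 15 clones (log2 fold change 5.48, adjusted p 0.00949) and on the 6 (5.49, adjusted p 0.00617). Of 35 TGF-β and BMP pathway genes 3 were higher and 1 lower, small numbers beside 3.69% and 1.69% of all genes, from which nothing is read about the pathway: Tgfb3 and Ltbp1 were among the higher ones, while Tgfb1 fell by 1.28 on the log2 scale (adjusted p 0.0171).

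The TEAD recognition core, CATTCC on either strand, was present in the promoter windows of 7 of 18 YAP/TEAD targets for which RefSeq gave one, and in 3 of 4 that were called and had a window (Ptpn14, Amotl2 and Crim1), beside 14.7% of all promoters. Amotl2, chr9:102717554-102717853 (plus strand), is shown as an example, with the match in capitals 65 bases before the start.
Amotl2 promoter: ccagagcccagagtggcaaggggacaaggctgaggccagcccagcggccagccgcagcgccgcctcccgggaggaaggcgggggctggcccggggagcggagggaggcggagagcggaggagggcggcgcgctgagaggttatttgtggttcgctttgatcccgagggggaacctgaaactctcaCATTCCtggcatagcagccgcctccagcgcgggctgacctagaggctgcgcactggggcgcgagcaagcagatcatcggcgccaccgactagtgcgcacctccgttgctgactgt
A core this short occurs often, and the window leaves out distal enhancers. The SRF-binding CArG box was in 1 of 14 contractile gene promoters (Myl9, not called) and in 1.63% of all promoters.

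Interferon-stimulated genes held about as few calls as genes at large, and other immune lists held several falls. None of 41 interferon-stimulated genes rose and 1 fell (median -1.41), none of 17 MHC class I and antigen processing genes rose and 4 fell (median -1.29), and of 36 cytokine, acute-phase and complement genes 7 fell and none rose (median -0.23), beside 1.69% lower over all genes. The cytokine median went from -0.01 without Δ-C60 clone 3 to -0.92 without Δ-C60 clone 2 and was -0.59 with WT clone 2 alone. Without WT clone 1 the genes called lower were none, 1 and 1 in these lists. Of 19 chemokine genes 1, Cxcl12, was called higher, a share near the 3.69% of all genes, and no chemokine gene was called higher without Δ-C60 clone 3 or without any 1 WT clone, while up to 4 were called lower with 1 clone left out. Psmb10, an immunoproteasome subunit on chromosome 8, had 15.5, 17.1 and 14.5 CPM in Δ-C60 and 36.7, 42.6 and 35.6 CPM in WT (log2 fold change -1.29, SE 0.21, adjusted p 0.0069), but with chromosome medians removed it was at -0.67 and not called (adjusted p 0.116). Tap1, which feeds peptides to MHC class I, had 1.08, 1.01 and 0.345 CPM against 25.2, 10.9 and 6.70 CPM. Psmb8 and Tap2 were the other 2 that fell, and Ifitm3, an antiviral membrane protein, was the called interferon-stimulated gene, at 70.2, 96.9 and 54.7 CPM against 312, 174 and 218 CPM. For these 3 named with values, each Δ-C60 clone was below each WT clone. Il33, an alarmin, Il11, a fibrogenic cytokine, and the complement genes C4b and C1ra fell along with Saa3, Hp and Steap4. Il33 was not called with chromosome medians removed or when any 1 WT clone was left out, among other alternatives. C1ra was not called when any 1 Δ-C60 or WT clone was left out.

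The interferon list depended on which WT library was used. Its clone medians were -0.73, -0.67 and -0.87 in Δ-C60, and 0.83, -0.66 and 0.14 in WT clones 1 to 3, so WT clone 2, the WT clone with most Nelfb reads, was close to Δ-C60. Against WT clone 2 alone the median log2 fold change of the list was 0.06, and that of the MHC list -0.40. The WT(N48) clones were at -1.39, -0.73 and -0.56 for the interferon list. Between Δ-C60 and WT(N48) the median log2 fold change was 0.17 for the interferon list and 0.16 for the MHC list. The part of the low Nelfb of WT clones 1 and 3 in these values was not tested.

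**Figure D5:**
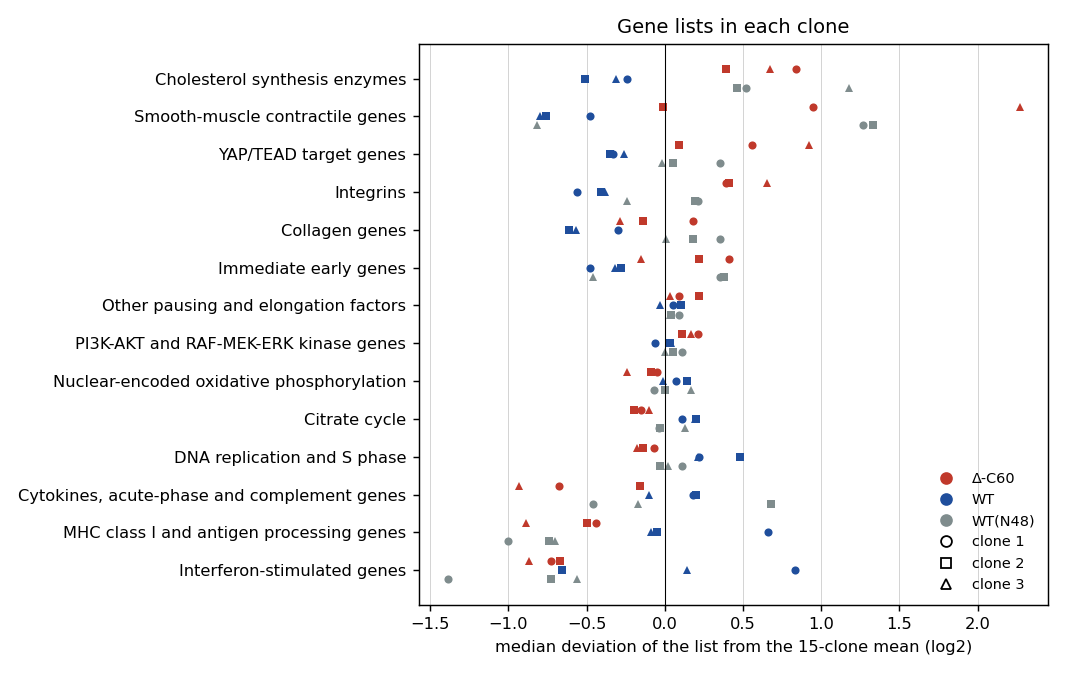
Median log2 deviation from the 15-clone mean (x) of 14 gene lists (y) in each Δ-C60, WT and WT(N48) clone. Medians of the Δ-C60 and WT clones do not overlap in any list drawn except other pausing and elongation factors. The gap is narrow for collagen genes, where the nearest clones are at -0.29 and -0.3. For interferon-stimulated genes WT clone 2 (-0.66) lies next to the Δ-C60 clones (-0.67 to -0.87).

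Among the mitochondrial lists examined, neither the citrate cycle (27 genes, median -0.27) nor nuclear-encoded oxidative phosphorylation (75 genes, median -0.16) nor fatty acid oxidation (25 genes, median -0.17) held a called gene, where 5.38% of all genes were called. Within the citrate cycle 21 of 27 genes had a negative log2 fold change. Suclg1, a subunit of succinyl-CoA ligase, had 68.9, 58.1 and 77.3 CPM in Δ-C60 and 126, 95.5 and 113 CPM in WT, a log2 fold change of -0.71 (adjusted p 0.0376) that was under the size required for a call. Suclg1 lies on chromosome 6, whose median was -0.28. It missed the adjusted p threshold with chromosome medians removed and when any 1 WT clone was left out, among other alternatives. Cs, citrate synthase, went the other way at 464, 512 and 467 CPM against 269.6, 255 and 295 CPM (0.82, adjusted p 0.0286), and lies on chromosome 10, whose median was 0.68; with chromosome medians removed it was at 0.18. Neither set overlapped.

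DNA replication genes had mostly negative log2 fold changes, 40 of 45, and a median of -0.45, with 1 called, a share near the 1.69% called lower over all genes. The called gene was Cdt1, which licenses replication origins, at 98.3, 61.6 and 63.6 CPM against 148, 220.0 and 152 CPM (log2 fold change -1.22, SE 0.22, adjusted p 0.011). Cdt1, Mcm5 and Gins3, 3 of the 4 members with the largest changes, lie on chromosome 8, and with chromosome medians removed no gene of the list was called and its median was -0.38. With 1 clone left out, 1 to 4 of the 45 were called lower, and against WT clone 2 alone the median was -0.73. For 23 of the 45 every Δ-C60 clone was below every WT clone, as it was for 1892 of all 13223 genes. Genes of G2/M and the spindle had a median of 0.03 with no call among 34, where 5.38% of all genes were called. Of 73 cytosolic ribosomal protein genes 1 was called, lower, again beside 1.69% of all genes, and the median was -0.26. Among 29 Trp53 targets, Plk2, Pmaip1 and Perp were called higher, beside 3.69% of all genes, and none lower, but none was called when any 1 WT clone was left out. How fast these clones divided was not analysed here.

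Genes that mark position and lineage varied from clone to clone. Of 28 imprinted genes, Plagl1 and Dlk1 were called higher, and of 15 Hox genes tested, Hoxb8 and Hoxb9, beside 3.69% of all genes. No gene of either list was called when any 1 WT clone was left out, and no Hox gene without Δ-C60 clone 1. Hoxb9 had 312, 19.8 and 0.0987 CPM in Δ-C60 and 0.0515, 0.083 and 0.152 CPM in WT, so that Δ-C60 clone 3 was within the WT range. Igf2, an imprinted growth factor, had 0.0802, 4.94 and 0.79 CPM in Δ-C60 and 367, 42.9 and 64.1 CPM in WT, with no overlap, but was not called by edgeR on the 15 clones (adjusted p 0.0574). It passed the adjusted p in 3 of 15 alternatives. All 15 tested fibroblast markers had reads in these clones, led by Fn1, and their sums were 28080, 18760 and 26000 CPM in Δ-C60 and 15710, 13410 and 10870 CPM in WT. Of these 15 markers, 2 were called higher, Fn1 and Col5a1, beside 3.69% of all genes. None was called higher with the replicate block, without Δ-C60 clone 3 or without any 1 WT clone. Markers of endothelium summed to 3.35 to 8.64 CPM in the 6 clones, led by Egfl7, with 3 markers at 0 in all 6. Macrophage and leukocyte markers summed to 15.7 to 63.0 CPM, led by Cd14, with 1 at 0, and no gene of either list was called. Epithelial markers summed to 31.4, 28.1 and 441 CPM in Δ-C60 and 65.8, 27.7 and 189 CPM in WT, led by Sprr1a and highest in clone 3 of each group. Skeletal muscle markers summed to 0.457 to 3.26 CPM, led by Acta1, with 4 markers at 0. Chondrocyte and osteoblast markers were abundant, at 1934, 2555 and 1418 CPM in Δ-C60 and 4335, 4690 and 3827 CPM in WT, led by Spp1, which was called lower, while Matn3 was called higher and 1 marker was at 0. Neural and glial markers summed to 387 to 644 CPM, led by Nes, pluripotency markers to 57.0 to 144.5 CPM, led by Klf4, and adipocyte markers to 38.4 to 93.6 CPM, led by Plin4, with 0, 5 and 2 markers at 0 and no call in these 3 lists. The part of such markers in the differences between the groups was not tested.

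When WT(N48) took the place of WT, edgeR called no gene. Of the 13223 genes, 0 (0%) passed and 1540 were below 0.05 before adjustment, with 0.0701 as the lowest adjusted p. DESeq2 on the same 15 clones called 136, and edgeR called 216 without Δ-C60 clone 2. WT(N48) clones themselves differed from WT clones in 1.47% of genes, 124 higher and 70 lower. These comparisons share libraries, so their values are given side by side only. For the 488 genes called higher in Δ-C60 than in WT, the median log2 fold change was 1.24 between WT(N48) and WT and 0.63 between Δ-C60 and WT(N48). For the 223 genes called lower these medians were -1.09 and -0.62. Tgfa was at 18.5 ± 2.49 CPM in WT, 1.54 ± 0.862 CPM in WT(N48) and 1.00 ± 0.161 CPM in Δ-C60 (mean ± SD, n = 3 clones). Ctgf stood at 45.0 ± 9.58 CPM in WT, 721 ± 701 CPM in WT(N48) and 2598 ± 3233 CPM in Δ-C60, so clones of both pBabe groups varied by about as much as their mean or more.

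Tgfb1 and C1ra had means in WT(N48) no lower than in WT. Tgfb1 was at 47.1 ± 17.1 CPM in WT and 48.1 ± 12.7 CPM in WT(N48), against 19.4 ± 3.39 CPM in Δ-C60, and the log2 fold change from WT(N48) was -1.31 (adjusted p 0.183). C1ra was at 22.3 ± 7.79, 30.4 ± 19.4 and 4.68 ± 1.13 CPM in the same order, a log2 fold change of -2.70 from WT(N48) (adjusted p 0.197). Neither passed the threshold against WT(N48), and WT and WT(N48) values overlapped for both. Both were singled out after their values were seen.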

How the data were processed

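Per the labels and the methods, RNA of the clones was prepared with a stranded mRNA kit, and the authors aligned reads to mm10 with Bowtie2, sorted them with SAMtools, kept alignments of mapping quality 30 or more and counted reads per gene with HTSeq. Whether counting used strand is not given in the sources used here. The deposited values are raw counts for 24421 genes by symbol. Reads on genes numbered 26636036, 27365670 and 23946987 in Δ-C60 clones 1 to 3 and 18413284, 23603226 and 18695572 in WT clones 1 to 3; reads on no gene were 9.14% to 12.0% and were left out. Positions were matched for 13202 of 13223 tested genes (GENCODE M21, RefSeq).

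All 15 clones entered 1 fit: filterByExpr, TMM, 1 mean per group and the robust quasi-likelihood test of edgeR 4.0.16, with Benjamini-Hochberg adjustment. Calls needed an adjusted p below 0.05 and a log2 fold change beyond 1 either way. DESeq2 1.42.0, other filters and scalings, a replicate block and leaving out clones were alternatives. The analysis scripts were tested on simulated data. Genes were named by rule: the NELF subunits, the 15 largest changes per direction among called genes (5 CPM in the higher group, no overlap, no numbered gene models) and up to 4 members per list of at least 5 CPM; others named among called list members were chosen after their values were seen. The clones, lists and alternatives were chosen with earlier results of these data known. Some genes are not reported here. Clones are the replicates. Each p-value sets a group difference against a spread between clones pooled over all 15 clones, MT194 and MT486 included. The pooled spread is not that of the 6 clones compared, among which Δ-C60 varied more than WT. On those 6 alone, edgeR called 79 genes beside 711.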

Additional observations from a re-analysis of the deposited data

How the results depend on the processing

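Calls between Δ-C60 and WT numbered 711. They were 79 with edgeR on the 6 clones alone, 1170 with DESeq2 on 15 clones, 1102 at a log2 fold change threshold of 0.5 and 3 without WT clones 1 and 3; leaving out 1 clone gave 93 (without WT clone 1) to 1173 (without Δ-C60 clone 2). DESeq2 on 6 clones (890), DESeq2 size factors (697), no filter (548), chromosome offsets (596) and the fit without MT486 clone 2, which nearly matched MT486 clone 1 (505), stayed within 1.5 times; the last 2 were chosen after seeing the data. Against WT(N48), 0 became 136 with DESeq2 on 15 clones and 47 on 6, and 0 to 216 with 1 clone left out, the highest without Δ-C60 clone 2. Nelfb had a log2 fold change of 2.33 and passed with DESeq2 on 15 clones (adjusted p 0.00393) and on 6 (2.33, adjusted p 0.0148); with 1 clone left out it ranged from 1.82 to 4.09, passing only without WT clone 2 (adjusted p 0.00942). Nelfa, with 1 clone left out, ranged from -0.303 to 0.0232, the latter without Δ-C60 clone 2, and was at -0.337 without WT clones 1 and 3. The cause of these changes was not tested. Of 110 named genes that were called, 21 stayed called with each clone left out, and none reversed in any alternative. Over the 48 list medians and their alternatives, 576 values moved by less than the spread between clones and 48 by more, most often without WT clones 1 and 3 or without Δ-C60 clone 2.

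The labels number the clones of each group 1 to 3, but the numbers did not pair them: deviations of same-numbered Δ-C60 and WT clones correlated at -0.08, -0.10 and 0.08. With the replicate block, 493 genes were called, 471 of them among the 711, 0 were called against WT(N48), and Nelfb had a log2 fold change of 2.65 (adjusted p 0.0612).

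With 3 clones a group, genes that vary among Δ-C60 clones cannot be told from genes that differ by group unless the change is large. Depth was lower in WT than in Δ-C60 clones, and genes of low CPM rest on few reads.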
